A study of Mus musculus with 6 samples.

Results

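The 8 S100 calcium-binding protein genes examined were S100a1, S100a4, S100a6, S100a8, S100a9, S100a10, S100a11 and S100a13, taken by gene name from a matrix of 22248 genes measured by RNA sequencing in bone-marrow-derived macrophages (BMDMs). The matrix held all 8, and each had a mean above 1 FPKM in both groups. BMDMs are macrophages grown from marrow cells in culture, here for 7 days with macrophage colony-stimulating factor (M-CSF). Both groups were C57BL/6 mice labelled as postnatal week 10, while the study's methods give an age of 8 weeks, and both carried Lyz2cre, a Cre recombinase driven by the lysozyme 2 locus of myeloid cells. The control group (n = 3 libraries) carried Lyz2cre alone, and the CITED2-deficient group (n = 3 libraries) carried Lyz2cre with floxed Cited2 (Cited2fl/fl:Lyz2cre), so that Cited2 is deleted only in cells in which that locus is or was active. CITED2 is a nuclear protein that binds the coactivators p300 and CBP, and the comparison asked which transcripts of unstimulated macrophages differ without it. The labels do not tie single libraries to single mice, so p-values measure the spread between these libraries, which may be partly technical.

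S100 proteins are small proteins with a pair of EF-hand calcium-binding loops that mostly work as dimers and, on binding calcium, expose a surface that docks onto target proteins. S100A8 and S100A9 pair as calprotectin, a metal-chelating alarmin stored in neutrophils and monocytes, whereas S100A10 has lost calcium binding and joins annexin A2 in a membrane complex that captures plasminogen. S100A4, S100A6 and S100A11 bind cytoskeletal proteins, annexins and the ubiquitin ligase adaptor CACYBP, S100A1 is known for its regulation of calcium pumps and channels, and S100A13 takes part in the unconventional export of FGF1 and interleukin 1 alpha.

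All 8 genes lie on chromosome 3 of the mouse genome (GRCm38/mm10). S100a1 (minus strand, 90511034 to 90514392), S100a13 (plus, 90514435 to 90524581), S100a4 (plus, 90603771 to 90606045), S100a6 (plus, 90612882 to 90624181), S100a8 (plus, 90668978 to 90670035) and S100a9 (minus, 90692632 to 90695721) formed one cluster. S100a11 (plus, 93520488 to 93526287) and S100a10 (plus, 93555080 to 93564643) lay 2824766 bases beyond S100a9. RefSeq promoter windows of GRCm38.p6, which run from 250 bases before to 50 bases after a start site, were matched by symbol for 7 of the 8 members, all but S100a10. The windows of S100a6 and S100a11 are shown because these were the 2 members that rose, and the capitals mark matches to the searched motifs.
S100a6, chr3:90612644-90612943, plus strand: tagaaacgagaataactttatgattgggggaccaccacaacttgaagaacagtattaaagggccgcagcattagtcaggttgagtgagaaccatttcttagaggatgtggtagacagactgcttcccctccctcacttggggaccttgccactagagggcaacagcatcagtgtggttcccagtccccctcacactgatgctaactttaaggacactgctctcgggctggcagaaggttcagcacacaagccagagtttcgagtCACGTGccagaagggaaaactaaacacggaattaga
S100a11, chr3:93520246-93520545, plus strand: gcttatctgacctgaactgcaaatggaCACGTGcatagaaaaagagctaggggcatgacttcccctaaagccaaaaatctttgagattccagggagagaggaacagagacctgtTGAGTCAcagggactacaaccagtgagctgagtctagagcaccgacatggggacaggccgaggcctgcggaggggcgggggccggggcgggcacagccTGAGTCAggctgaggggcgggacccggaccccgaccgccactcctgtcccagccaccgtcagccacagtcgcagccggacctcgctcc
In all, 6 motifs were searched on both strands in every window: ISRE (GAAANNGAAA), a STAT or BCL6 site (TTCNNNGAA), C/EBP (TTGCNNNAA), NF-kB (GGGNNNTTCC), AP-1 (TGANTCA) and the hypoxia response element core (ACGTG). The S100a11 window held 2 AP-1 matches, and 7.8% of 32851 RefSeq windows held at least 1 and 0.46% at least 2. Both the S100a6 and the S100a11 windows held ACGTG within a palindromic run, in which the matches of the 2 strands overlap, and 19.6% of all windows held that motif. None of the other 5 members with a window matched any of the 6 motifs, which were present in 3.4% (ISRE), 8.3% (STAT or BCL6), 9.6% (C/EBP) and 5.6% (NF-kB) of all windows. A match of letters is a description and not a bound site.

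S100a1 and S100a13 are arranged head to head, with start sites 43 bases apart in the GENCODE annotation. Their RefSeq windows share 204 bases. The S100a1 window (90514281 to 90514580) is set on a RefSeq start site that differs from the GENCODE one, so these 2 numbers are not on the same basis. The S100a13 window is shown for this arrangement, with the bases between the 2 GENCODE start sites in capitals.
S100a13, chr3:90514185-90514484, plus strand: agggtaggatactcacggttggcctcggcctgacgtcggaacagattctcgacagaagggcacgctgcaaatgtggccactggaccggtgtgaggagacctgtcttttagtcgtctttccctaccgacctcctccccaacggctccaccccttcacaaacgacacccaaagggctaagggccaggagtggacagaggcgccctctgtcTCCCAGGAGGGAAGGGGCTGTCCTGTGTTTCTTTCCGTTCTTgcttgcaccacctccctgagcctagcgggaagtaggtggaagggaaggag

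The estimated depth per library was 17289275 to 18952085 fragments in controls and 22583975 to 26100390 in the CITED2-deficient group. Cited2 itself was 71.7, 79.3 and 75.5 FPKM in controls and 9.27, 7.22 and 7.53 FPKM in deficient libraries. All 7 macrophage markers listed were expressed, and 5 of them passed the test below as lower in the deficient group. Adgre1 (F4/80) was at 2214 FPKM in controls and 1776 FPKM in deficient BMDMs. Lyz2, whose locus drives the Cre in both groups, was at only 31.3 and 9.75 FPKM. None of the 5 dendritic cell markers in the matrix and none of the 6 lymphocyte markers reached a mean of 1 FPKM. Fibroblast or stromal markers set the groups apart, since their summed level was 44.3 to 52.5 FPKM in controls against 561, 178 and 179 FPKM in deficient replicates 1, 2 and 3. In this sum deficient replicate 1 stood apart from the other deficient libraries. In deficient replicates 1, 2 and 3, Col1a1 was at 305, 62.0 and 62.6 FPKM and Col1a2 at 175, 66.3 and 63.6 FPKM. Dcn was at 6.83, 6.18 and 7.53 FPKM, while every other listed marker was highest in replicate 1 among deficient libraries. Values without deficient replicate 1 are given beside the results for S100a4, S100a6, S100a8, S100a9, S100a11 and S100a16. Those for S100a1, S100a10 and S100a13 are given with the dependence on processing. In bulk RNA, fewer cells of a type and less RNA per cell cannot be told apart.

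In all, 5 of the 8 S100 genes differed between genotypes in opposite directions. S100a6 and S100a11 rose in CITED2-deficient BMDMs, S100a1, S100a4 and S100a8 fell, and S100a9, S100a10 and S100a13 did not pass the test (limma on log2(FPKM + 1), Benjamini-Hochberg adjusted over 11687 genes, adjusted p under 0.05). No member changed by 2-fold, which is 1 on the log2 scale. Over all tested genes 51.3% were called, 16.7% as higher and 34.6% as lower, so 5 of 8 members called, 2 higher and 3 lower, was near the share of all genes. The same 5 members were those whose groups of libraries did not overlap, which held for 59.9% of all tested genes. The median log2 fold change was -0.10 over the members and -0.10 over all tested genes. Of the calls over all genes 32.5% were higher, against 42.0% after quantile normalization and 50.5% after median-ratio scaling.

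**Figure D1:**
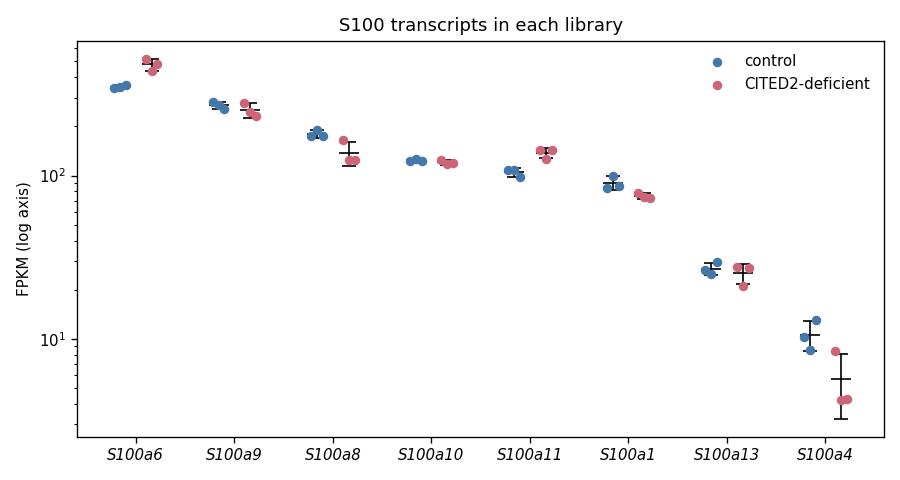
FPKM on a log axis for each S100 gene, ordered by control level, in the 3 control (blue) and 3 CITED2-deficient (red) libraries; horizontal bars are means and error bars are SD (n = 3 per group). S100a6 sits above its controls in every deficient library (436 to 518 against 343 to 357 FPKM), while S100a10 and S100a13 overlap.

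Levels per transcript length spanned a wide range within the family. In controls the order of mean FPKM was S100a6, S100a9, S100a8, S100a10, S100a11, S100a1, S100a13 and S100a4. Of the neighbours in that order only S100a11 (97.7 to 108 FPKM) and S100a1 (83.8 to 100 FPKM) overlapped between control libraries. In deficient BMDMs S100a6 and S100a9 still led, but S100a8 (124 to 165 FPKM) overlapped both S100a11 (126 to 143 FPKM) and S100a10 (117 to 125 FPKM), which did not overlap each other. The 8 genes summed to 1151, 1180 and 1136 FPKM in controls and 1345, 1146 and 1202 FPKM in deficient libraries, a mean of 1156 ± 22.4 against 1231 ± 103 FPKM (SD, n = 3 each), and the groups overlapped.

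**Figure D2:**
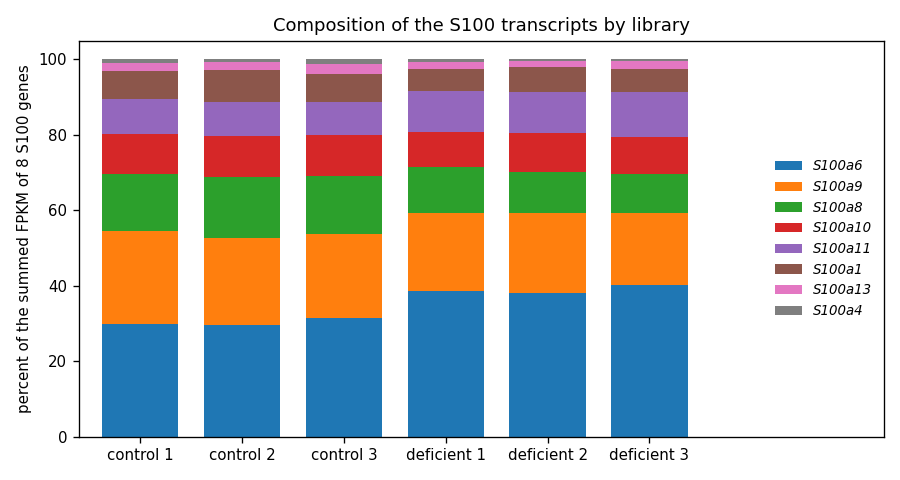
Percent of the summed FPKM of the 8 S100 genes contributed by each gene, in stacked bars for the 3 control and 3 CITED2-deficient libraries. The S100a6 segment covers 29.6% to 31.4% in controls and 38.1% to 40.1% in deficient libraries, and the S100a8 segment 15.2% to 16.2% and 10.3% to 12.3%.

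S100a6 (calcyclin), the most abundant member, was at 343, 349 and 357 FPKM in controls and 518, 436 and 482 FPKM in deficient libraries. All 3 deficient libraries were above all 3 controls. The mean was 350 ± 6.92 against 479 ± 40.9 FPKM (SD, n = 3 each), giving a log2 fold change of 0.45 (SE 0.054, limma adjusted p = 0.000137). The values rested on 3497 to 3912 fragments per control library and 5707 to 7622 per deficient library. Without deficient replicate 1, the library with the most fibroblast marker RNA, the log2 fold change was 0.39 (adjusted p = 0.000141).

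S100a11 (calgizzarin), which binds annexin A1 and takes part in membrane repair, was at 108, 108 and 97.7 FPKM in controls and 143, 126 and 143 FPKM in deficient libraries. The groups did not overlap. Its log2 fold change was 0.39 (SE 0.059, limma adjusted p = 0.000566), and 0.36 (adjusted p = 0.00217) without deficient replicate 1. Fibroblast markers also were higher in the deficient group (of 10 listed, 8 were tested and all 8 were higher). Leaving out replicate 1 does not remove this difference. Deficient replicates 2 and 3 still had summed levels of 178 and 179 FPKM, against 44.3 to 52.5 FPKM in controls. The part of such cells in the rise of S100a6 and S100a11 was not tested.

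S100a4 (metastasin), a partner of non-muscle myosin heavy chain IIA, was the least abundant member, at 10.3, 8.60 and 13 FPKM in controls and 8.49, 4.25 and 4.32 FPKM in deficient libraries. Deficient replicate 1 nearly reached the lowest control. The mean was 10.6 ± 2.24 against 5.69 ± 2.43 FPKM (SD, n = 3 each), with a log2 fold change of -0.84 (SE 0.23, limma adjusted p = 0.0126). These values rested on only 40 to 103 fragments per library, and the annotated exons of S100a4 overlap those of Gm42674 on the same strand, so fragments could be assigned to either gene. The call was lost without deficient replicate 3 (log2 fold change -0.70, adjusted p = 0.0513) and with no filter on low values (adjusted p = 0.0557). Without deficient replicate 1 the log2 fold change was -1.12 (adjusted p = 0.000344). S100a4 and S100a6, which moved in opposite directions, lie 6836 bases apart.

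The intracellular partners of these proteins were measured as a list of 7 genes. Of the 5 tested, 2 were higher, 2 were lower and 1 did not pass, with a median log2 fold change of 0.08. Myh9, the myosin heavy chain that S100A4 binds, rose from 351 ± 8.87 to 403 ± 15.4 FPKM (SD, n = 3 each), giving a log2 fold change of 0.20 (limma adjusted p = 0.00127). Cacybp, the calcyclin-binding protein, fell by 0.18 on the log2 scale (adjusted p = 0.00524), a call lost after median-ratio scaling (adjusted p = 0.127). Capzb, the beta subunit of the actin capping protein, fell by 0.10 (adjusted p = 0.014). That call was lost under both other scalings and with no variance trend (adjusted p = 0.0783). Atp2a2, the calcium pump SERCA2 that S100A1 regulates in muscle, rose by 0.15 (adjusted p = 0.00573). Il1a (means of 0.492 and 0.610 FPKM) and Fgf1, cargoes of S100A13 export, were too low to be tested.

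**Figure D3:**
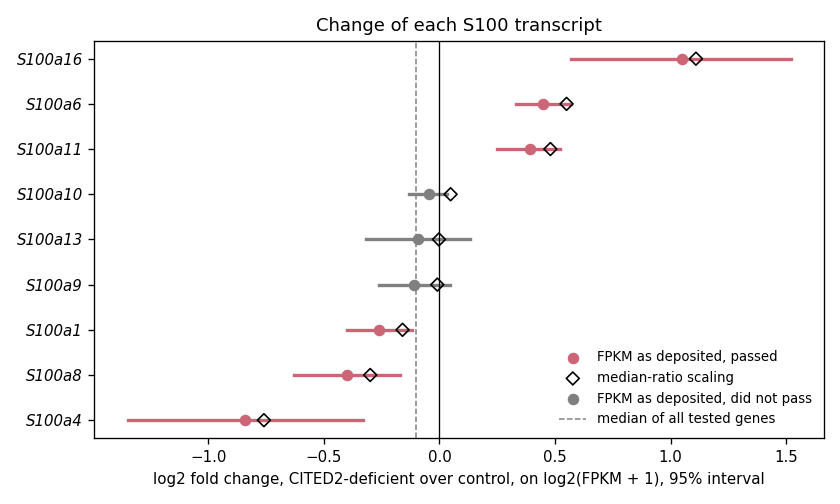
Log2 fold change of CITED2-deficient over control on log2(FPKM + 1) for the 8 S100 genes and S100a16, with 95% intervals from limma (n = 3 per group); red passed the test and grey did not, open diamonds are the same value after median-ratio scaling, and the dashed line is the median of all tested genes (-0.10). S100a6 and S100a11 lie to the right of 0 with both scalings, and S100a10 moves from -0.047 to 0.048.

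S100a8, the calprotectin subunit also known as MRP8, was at 175, 191 and 174 FPKM in controls and 165, 124 and 124 FPKM in deficient libraries. Deficient replicate 1 was the highest of its group, and the groups did not overlap. The mean was 180 ± 9.64 against 138 ± 24.0 FPKM (SD, n = 3 each), with a log2 fold change of -0.40 (SE 0.10, limma adjusted p = 0.00942). It was -0.54 (adjusted p = 2.86e-05) without deficient replicate 1.

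S100a9, the other subunit (MRP14), was at 283, 271 and 255 FPKM in controls and 279, 244 and 231 FPKM in deficient libraries. The groups overlapped through deficient replicate 1. The log2 fold change was -0.11 with a 95% interval of -0.26 to 0.045 (limma adjusted p = 0.216). Without deficient replicate 1 it was -0.18 and passed the test (adjusted p = 0.0136), so the S100a9 result depended on that library.

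Because the 2 subunits work as a pair, their ratio was compared within each library, where scaling has no effect. The ratio of S100a8 to S100a9 was 0.616, 0.706 and 0.684 in controls and 0.592, 0.507 and 0.537 in deficient libraries. All 3 deficient values were below all 3 controls, and the mean ratio was 0.668 ± 0.0469 against 0.545 ± 0.0433 (SD, n = 3 each). The log2 ratio differed by -0.295 (exact two-sided permutation test, p = 0.1, the smallest that 3 against 3 libraries allow, so the design could not pass 0.05).

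S100a8 and S100a9 are granulocyte genes, and other granulocyte markers moved in both directions. Of 15 markers 13 were tested, 5 of them higher and 8 lower, with a median log2 fold change of -0.33. The 3 largest falls on the log2(FPKM + 1) scale were in serine proteases and myeloperoxidase of primary granules. These were Mpo from 16.2 to 1.95 FPKM (log2 fold change -2.54), Prtn3 from 14.3 to 2.52 FPKM (-2.12) and Elane from 12.4 to 2.15 FPKM (-2.08). That scale understates low genes such as Ctsg, which fell from 4.22 to 0.626 FPKM (-1.68). The 3 largest rises were in Retnlg (0.649 to 4.50 FPKM, 1.74), Ltf (94.3 to 177 FPKM, 0.90) and Mmp8 (2.45 to 4.64 FPKM, 0.70), which are genes of later neutrophil stages. Ngp, a specific granule protein, fell from 149 to 119 FPKM (-0.33, limma adjusted p = 0.00107). Camp, another gene of such granules, fell from 47.0 to 23.1 FPKM (-0.99, adjusted p = 1.13e-06), so not all genes of later stages rose. The neutrophil surface marker Ly6g had means of 0.276 and 0.552 FPKM, and summed granulocyte markers were 433 to 473 FPKM in controls and 453 to 499 FPKM in deficient libraries, which overlapped. The part of granulocytic cells in the S100a8 result was not tested.

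Of 5 monocyte markers 3 were higher and 1 was lower, and Cx3cr1 did not pass. Ly6c2 (7.71 to 36.0 FPKM), Vcan (0.755 to 3.49 FPKM) and Ccr2 (24.3 to 35.5 FPKM) rose, while F13a1 fell from 178 to 24.8 FPKM. Of 6 transcription factors known to act on myeloid genes, S100a8 and S100a9 among them, 2 were higher, 3 were lower and 1 did not pass. Cebpd fell from 15.3 to 7.07 FPKM (log2 fold change -1.01, limma adjusted p = 2.36e-05) and Cebpa from 120 to 95.2 FPKM (-0.33, adjusted p = 7.43e-05). Cebpb rose from 85.9 to 103 FPKM (0.25, adjusted p = 0.0105). Spi1 (0.10, adjusted p = 0.0402) and Stat3 (-0.13, adjusted p = 0.00966) also passed, but the Stat3 call was lost under both other scalings. The Spi1 call was lost without control replicate 1, 2 or 3 or deficient replicate 3 (adjusted p = 0.0729, 0.106, 0.0909 and 0.108). It was also lost with no filter (adjusted p = 0.101) and with no variance trend (adjusted p = 0.130).

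Receptors of extracellular S100 proteins moved in both directions too. Of 8 listed, 7 were tested, with 2 higher, 3 lower and 2 not passing. Tlr4, a receptor for calprotectin, rose from 78.7 to 93.5 FPKM (log2 fold change 0.25, limma adjusted p = 0.00149), while Ly96, its coreceptor MD-2, fell from 24.5 to 18.5 FPKM (-0.39, adjusted p = 0.00541). Emb (embigin), which binds S100A9, showed the largest change on the list and fell from 113 ± 2.58 to 57.8 ± 0.826 FPKM (SD, n = 3 each, -0.95, adjusted p = 3.28e-08). Its relative Bsg (basigin) rose by 0.15 (adjusted p = 0.0114), a call lost with no variance trend (adjusted p = 0.0517). Cd36, which takes up fatty acids carried by calprotectin, fell from 460 to 373 FPKM (-0.30, adjusted p = 0.000123). Ager (RAGE), the receptor shared by many S100 proteins, was at 0.528 and 0.387 FPKM on average and was not tested.

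S100a10 (p11), the light chain of the annexin A2 complex, was at 122, 127 and 123 FPKM in controls and 125, 117 and 119 FPKM in deficient libraries, which overlapped. The log2 fold change was -0.047 with a 95% interval of -0.13 to 0.033 (limma adjusted p = 0.294), and 0.048 after median-ratio scaling. Its partner Anxa2 rose from 380 ± 11.2 to 431 ± 16.4 FPKM (SD, n = 3 each), giving a log2 fold change of 0.18 (adjusted p = 0.0026). The ratio of S100a10 to Anxa2 was 0.323, 0.324 and 0.331 in controls and 0.279, 0.282 and 0.275 in deficient libraries. The 2 groups did not overlap, and the log2 ratio differed by -0.227 (exact two-sided permutation test, p = 0.1, the smallest possible). Ahnak, a scaffold bound by the complex, was at 96.7 and 102 FPKM (log2 fold change 0.076, adjusted p = 0.189), and 0.17 (adjusted p = 0.00974) after median-ratio scaling.

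**Figure D4:**
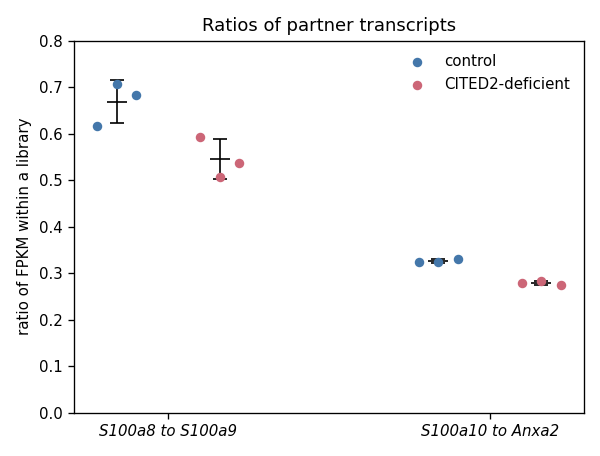
Ratio of FPKM within each library for S100a8 to S100a9 and for S100a10 to Anxa2, in control (blue) and CITED2-deficient (red) libraries; horizontal bars are means and error bars SD (n = 3 per group). Both ratios are lower in every deficient library than in any control (0.507 to 0.592 against 0.616 to 0.706, and 0.275 to 0.282 against 0.323 to 0.331).

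Annexins are calcium-dependent membrane-binding partners of S100 proteins. Of 9 tested, Anxa2 included, 4 were higher, 2 lower and 3 did not pass, with a median log2 fold change of 0.10. Anxa1, the partner of S100A11, was at 992, 1021 and 959 FPKM in controls and 1660, 1601 and 1662 FPKM in deficient libraries (log2 fold change 0.73, limma adjusted p = 1.23e-07). Anxa4 rose from 222 to 400 FPKM (0.85, adjusted p = 1.51e-08). Anxa6, which binds S100A1 and S100A6, fell from 85.3 to 69.6 FPKM (-0.29, adjusted p = 0.000122), and Anxa3 from 164 to 134 FPKM (-0.30, adjusted p = 0.00037). Anxa7 rose by 0.10 (adjusted p = 0.0192). That call was lost without control replicate 1 or 3 or deficient replicate 3 (adjusted p = 0.056, 0.0718 and 0.0662), and with no variance trend (adjusted p = 0.0744). Anxa11 was at 19.1 and 17.7 FPKM (-0.10, adjusted p = 0.249). In the plasminogen list, 1 of 5 tested genes was lower and 4 did not pass. Plau, the urokinase activator, fell from 28.2 to 17.0 FPKM (-0.68, adjusted p = 0.000545). Eno1, a plasminogen receptor and the most abundant gene of that list, was at 566 and 573 FPKM (0.015, adjusted p = 0.782), and passed as higher after quantile normalization (0.089, adjusted p = 0.04) and median-ratio scaling (0.11, adjusted p = 0.0463).

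**Figure D5:**
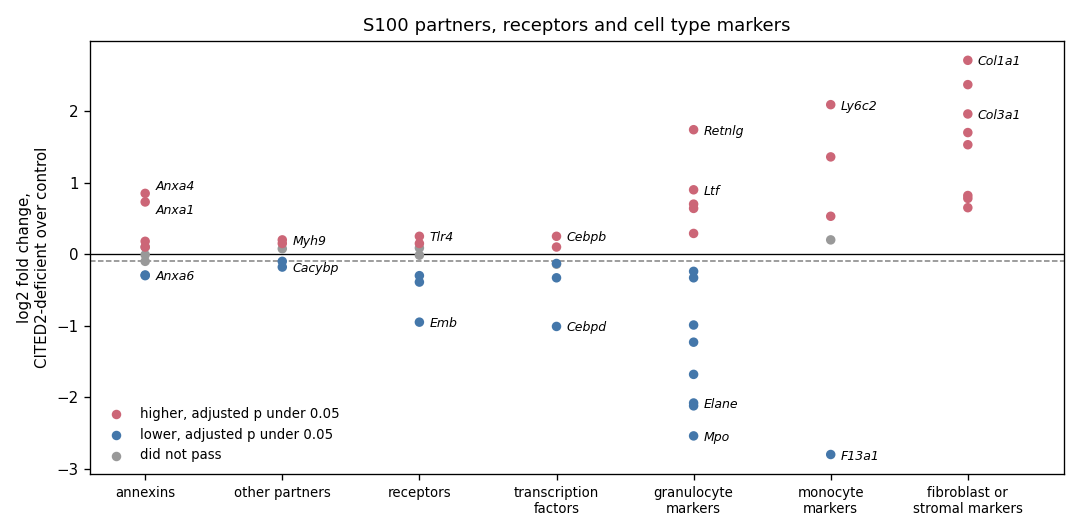
Log2 fold change (CITED2-deficient over control) of each tested gene in 7 lists around the S100 proteins, as points in columns; red and blue passed the test as higher and lower, grey did not pass, and the dashed line is the median of all tested genes (-0.10). Annexins, partners and receptors have members on both sides of 0, granulocyte markers run from -2.54 (Mpo) to 1.74 (Retnlg), and all 8 tested fibroblast or stromal markers lie above 0, led by Col1a1 (2.71), Col1a2 (2.37) and Col3a1 (1.96).

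S100a1, best known from heart and skeletal muscle, was at 83.8, 100 and 86.9 FPKM in controls and 78.3, 74.2 and 72.8 FPKM in deficient libraries. The groups did not overlap. The mean was 90.2 ± 8.59 against 75.1 ± 2.89 FPKM (SD, n = 3 each), with a log2 fold change of -0.26 (SE 0.063, limma adjusted p = 0.00775). After median-ratio scaling it was -0.16 and the call was lost (adjusted p = 0.0695). S100a13, which starts 43 bases away on the other strand in the window shown above, was at 26.4, 24.9 and 29.4 FPKM in controls and 27.4, 21.2 and 27.2 FPKM in deficient libraries. These groups overlapped, and the log2 fold change was -0.095 with a 95% interval of -0.32 to 0.13 (adjusted p = 0.448), wide enough to hold the fall of S100a1. Leaving out deficient replicate 2 turned its sign (0.022).

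Outside the 8 members the matrix held 5 other S100 genes. S100a16 was at 1.62, 0.885 and 2.09 FPKM in controls and 5.47, 3.16 and 4.01 FPKM in deficient libraries. All 3 deficient libraries were above the controls, with a log2 fold change of 1.05 (SE 0.21, limma adjusted p = 0.00279), resting on 12 to 31 fragments per control library and 56 to 109 per deficient library. Without deficient replicate 1 it was 0.88 (adjusted p = 0.00943). S100a3, S100a7a, S100a14 and S100b had at most 6 fragments in any library and were not tested. S100a2, S100a5, S100g and S100z were not analysed here.

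Of the genes outside the S100 family within 100 kb of a member, 4 were tested. Chtop, which lies 1536 bases from S100a1, was at 48.9, 50.5 and 50.4 FPKM in controls and 46.8, 44.8 and 47.0 FPKM in deficient libraries (log2 fold change -0.11, limma adjusted p = 0.0355). That call was lost without control replicate 2 or 3 or deficient replicate 1 or 2 (adjusted p = 0.0859, 0.0966, 0.0537 and 0.113). It was also lost under both other scalings (log2 fold change -0.053 and -0.016, adjusted p = 0.289 and 0.771) and with no variance trend (adjusted p = 0.0690). Snapin fell by 0.30 on the log2 scale (adjusted p = 0.00474). Ilf2 (-0.092, adjusted p = 0.308) and Ints3 (-0.095, adjusted p = 0.149) did not pass, and Npr1, Gm5278 and Tchh were below 1 FPKM.

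Of 11 other EF-hand calcium-binding genes 2 were higher, 3 lower and 6 did not pass, with a median log2 fold change of -0.06. Calm2 (calmodulin) fell from 590 to 440 FPKM (-0.42, limma adjusted p = 2.67e-06), Sri (sorcin) from 84.8 to 63.2 FPKM (-0.42, adjusted p = 0.000135) and Lcp1 (L-plastin) from 1416 to 1292 FPKM (-0.13, adjusted p = 0.00324, a call lost after median-ratio scaling). Aif1 (IBA1) rose from 88.0 to 113 FPKM (0.36, adjusted p = 9.46e-05) and Capn1 (calpain 1) from 21.8 to 25.2 FPKM (0.20, adjusted p = 0.0124).

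Genes were also ranked by the root mean square difference of their centred log2(FPKM + 1) from each member over the 6 libraries. The closest to S100a6 were Gm10602 (0.0397) and Capg (0.0465), the latter an actin-capping protein that went from 845 to 1171 FPKM. Those closest to S100a11 were Usp6nl (0.0333) and Fam53c (0.0413), to S100a8 Lrfn4 (0.0472) and Cenpt (0.0493), and to S100a1 Polr1c (0.0286) and D230025D16Rik (0.0289). S100a4 had no close match, its nearest being Rps27 (0.172) and Smim27 (0.178). For the members that did not pass they were Fen1 (0.0271) and Fbxo30 (0.0281) for S100a9, Ttc4 (0.0135) and Chp1 (0.0151) for S100a10, and Col18a1 (0.0299) and Nsl1 (0.0346) for S100a13. Lrfn4 (1.59 and 1.03 FPKM in controls and deficient BMDMs), Fen1 (1.37 and 1.22 FPKM) and Nsl1 (1.68 and 1.52 FPKM) were low. Their changes are understated on the log2(FPKM + 1) scale. This likeness is a description over 6 libraries of 2 groups.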

How the data were processed

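RNA from 6 BMDM libraries was prepared by the authors with a stranded, rRNA-depleted total RNA kit and sequenced. The authors deposited FPKM per gene (fragments per kilobase of transcript, scaled to library size), and the submitters' processing notes name mm10, STAR, Cufflinks and Cuffdiff; whether counting used strand was not found in those notes or the methods. Multiplying back by mean GENCODE vM21 transcript lengths and an estimated depth gave whole fragments, within 0.02, for 95.7% of genes in all 6 libraries, and these set the depth. Genes with a mean of at least 1 FPKM (11687) were tested with limma 3.58.1 in R 4.3.3 on log2(FPKM + 1), with a variance trend and genotype alone, and Benjamini-Hochberg adjustment; fold changes of low genes are understated on this scale. The fit was tested on simulated data. Exact permutation tests (SciPy 1.17.1) compared ratios. Alternatives were other pseudocounts, filters, scalings, variance models and weights, voom on recovered fragments, a replicate block and each library left out. Members and gene lists were chosen with earlier results of these data known. Named were all members, genes of each list that passed (if over 6, the 3 largest in each direction), the most abundant of a list, binding partners, neighbours within 100 kb and the 2 genes most like each member. Camp, Ctsg and Dcn were named besides. A few list genes are not reported here and were left out of the list counts.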

Additional observations from a re-analysis of the deposited data

How the results depend on the processing

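Of 128 alternative values over the 8 S100 members (16 settings each), 121 kept their direction and their side of the threshold, with S100a6, S100a8 and S100a11 keeping theirs in all 16. The member count was 4 to 6 under every setting but the fold threshold, and adding a fold change of at least 2 left 0 members and 615 genes. Leaving out 1 library gave 5226 to 5467 genes and 4 to 6 members. With no filter or after median-ratio scaling 4 members passed (S100a4 and S100a1 lost, respectively). The S100a10 value reversed to 0.048 after median-ratio scaling and the S100a13 value to 0.022 without deficient replicate 2 (range -0.16 to 0.022 with 1 library left out). Without deficient replicate 1 the log2 fold changes of S100a1, S100a10 and S100a13 were -0.29, -0.075 and -0.16, and their calls stayed the same. Deviations of same-numbered libraries had correlations of 0.014, 0.008 and 0.04, against -0.052 to 0.035 for the other pairs. They gave no sign of pairing by number, but 3 libraries a group could miss a weak one. The replicate block gave 5708 genes and 6 members, adding S100a9 (limma adjusted p = 0.0488), while the Chtop call was lost (adjusted p = 0.0675). Of 72 other genes named by the rule above and tested, 52 kept direction and call in all settings, and 7 that did not pass reversed. These were Ilf2 (0.003), Fbxo30 (0.018), Ttc4 (0.012) and Col18a1 (0.0023) after quantile normalization, Fbxo30 (0.02), Ttc4 (0.044), Chp1 (0.061) and Col18a1 (0.027) after median-ratio scaling, Eno1 (-0.033) without deficient replicate 1, Col18a1 (0.0089) without control replicate 3, and Col18a1 (0.034) and Nsl1 (0.00064) without deficient replicate 2. With 1 library left out these ranged from -0.033 to 0.047 (Eno1), -0.11 to 0.034 (Col18a1) and -0.16 to 0.00064 (Nsl1). Where the cause of a change is not part of the setting itself, the cause was not tested. The ratio differences ranged from -0.36 to -0.24 (S100a8 to S100a9) and -0.24 to -0.22 (S100a10 to Anxa2) on the log2 scale with 1 library left out, where the smallest p is 0.200. Among the tested S100 genes S100a4 and S100a16 rest on the fewest fragments, and 3 libraries a group limit all values.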

Other observations

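Markers of macrophages and of erythroid, mast cell and megakaryocyte cells are given here. Of 6 erythroid, mast cell and megakaryocyte markers in the matrix 1 was tested, the megakaryocyte integrin Itga2b, which rose from 2.90 to 4.08 FPKM (log2 fold change 0.38, limma adjusted p = 0.03). That call was lost without control replicate 1 or 2 or deficient replicate 1 (adjusted p = 0.0625, 0.09 and 0.103). It was also lost with no filter (adjusted p = 0.0925) and with voom (adjusted p = 0.0502). Of the 7 macrophage markers 1 was higher, 5 were lower and 1 did not pass, with a median log2 fold change of -0.31. Fcgr1 rose from 172 to 482 FPKM (1.48). Adgre1 and Lyz2 also fell, as given above, and Lyz2 is the locus that drives the Cre in both groups. Itgam fell from 89.7 to 50.9 FPKM (-0.81), Csf1r from 1135 to 916 FPKM (-0.31) and Mertk from 45.3 to 37.7 FPKM (-0.26).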
